A study of Ovis aries with 2 samples.

Results

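FGF5, FGF7 and FGF10, which encode secreted fibroblast growth factors, and FGFR1, FGFR2 and FGFR3, which encode receptors for them, were described across all cells of lamb skin. They are 6 of the 18161 genes in the table, were chosen by name and not by their values, and all of them were present. The skin came from Hu sheep lambs aged 3 days. One library, called straight here, was made from lambs with straight wool, and the other, called curly, from lambs whose wool is described as waved in the labels. Skins of 3 lambs were pooled for each of them, and cells released from isolated follicles and from whole skin were mixed before loading on the 10x Genomics platform. Both libraries therefore share breed, age, tissue and preparation, and the labels give no treatment or genetic alteration. With 1 library per wool type there was no spread between lambs against which a difference could be set, so no test between straight and curly was made and no p-value is given. A difference between the libraries may lie between the pools of lambs, the mixing of follicles and skin, or the wool types, which cannot be told apart.

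Fibroblast growth factors are secreted proteins that bind receptor tyrosine kinases at the cell surface together with heparan sulfate. The bound receptor signals through the MAP kinase pathway, which switches on feedback inhibitors such as the Sprouty proteins and the phosphatase DUSP6 and transcription factors such as ETV4 and ETV5. In the hair follicle, FGF7 and FGF10 are made in the mesenchyme and act on the epithelial splice form of FGFR2, while FGF5 is known for ending the growth phase of hair, and its loss gives long hair in several mammals. The dermal papilla is the cluster of mesenchymal cells at the follicle base, and the matrix is the dividing epithelium around it that gives rise to the hair shaft and the inner root sheath.

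The straight library held 6452 cells and 57956122 UMIs, each UMI marking 1 captured RNA molecule, and the curly library 7585 cells and 77634565 UMIs. Median depth was 7373.5 and 7495 UMIs per cell. A total of 70 cell barcodes occurred in both libraries. The table holds fewer cells than the study counted after its filters, and shares refer to the cells in the table. Levels are given in CPM, the UMIs of a gene in a set of cells scaled to a total of 1000000 UMIs of those cells, always with the straight value first, and ratios as log2 of curly over straight. The 95% intervals in brackets are exact ones throughout, by Poisson for CPM, by Clopper-Pearson for a share of cells and by the binomial split of the UMIs for a ratio. They cover counting error only. Where no UMI was seen, the limit given is the one that 3 counts would set. Clusters were formed without any gene of the FGF pathway lists and named from marker genes. A cluster that did not meet the naming rule is called here by its leading genes. An unnamed cluster of 354 straight and 877 curly shallow cells (median 688 and 763 UMIs), led by HBB, was left out of the order of levels; it held 80.4 and 61.7 CPM of FGFR2 from 27 and 58 UMIs, and 74.4 and 60.6 CPM of FGFR3 from 25 and 57 UMIs. The cells named dermal papilla cell (DPC)-like expressed 6 of the 7 papilla markers in the table in at least 10% of cells, and DPC-like cells made up 19.9% (18.9 to 20.9) of the straight and 9.40% (8.75 to 10.1) of the curly library. Matrix-like cells made up 9.05% and 13.3%.

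Over all cells, FGF7 and FGFR1 were lower in the curly library by 2-fold or more, and FGF5 was higher by as much. FGF7 stood at 111 and 17.4 CPM, a log2 ratio of -2.68 (-2.77 to -2.60), and FGF5 at 4.59 and 11.8 CPM, a ratio of 1.36 (1.16 to 1.56). FGFR1 stood at 51.8 and 21.3 CPM (-1.28, -1.37 to -1.19). FGFR2 differed little, at 40.4 and 37.3 CPM (-0.11, -0.19 to -0.03), and FGFR3 stood at 23.8 and 28.8 CPM (0.27, 0.18 to 0.37). FGF10, with 34 UMIs only, stood at 0.483 and 0.0773 CPM (-2.64, -4.21 to -1.34). Of the 13196 genes with at least 100 UMIs in all cells, 6.91% were lower and 3.27% were higher in curly by 2-fold or more. These values mix the level within a cell type with the share of that cell type, and fewer cells of a type and less RNA per cell cannot be told apart in them. The following values are therefore given per cluster.

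FGF7, a growth factor for keratinocytes, was a DPC gene in both libraries. DPC-like cells held 5812 of the 6458 FGF7 UMIs (90.0%) of the straight library and 1071 of 1349 (79.4%) of the curly library. Their level was 728 CPM (710 to 747) in straight against 339 CPM (319 to 360) in curly, a log2 ratio of -1.10 (-1.20 to -1.01). Averaged over the libraries, the level of DPC-like cells exceeded that of all other cells by 6.16 on the log2 scale. The share of DPC-like cells with an FGF7 UMI was 53.5% in straight and 36.0% in curly, against 2.604% and 1.807% of endothelial-like cells, which served as the measure of free RNA. The median depth of DPC-like cells was 5979.5 and 4269 UMIs, and that of endothelial-like cells 5306 and 3827. FGF7 was the only 1 of the 4 members with enough UMIs for a ratio in DPC-like cells that passed 2-fold, and 5.21% of 7000 genes were lower and 2.77% higher there by as much.

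**Figure D1:**
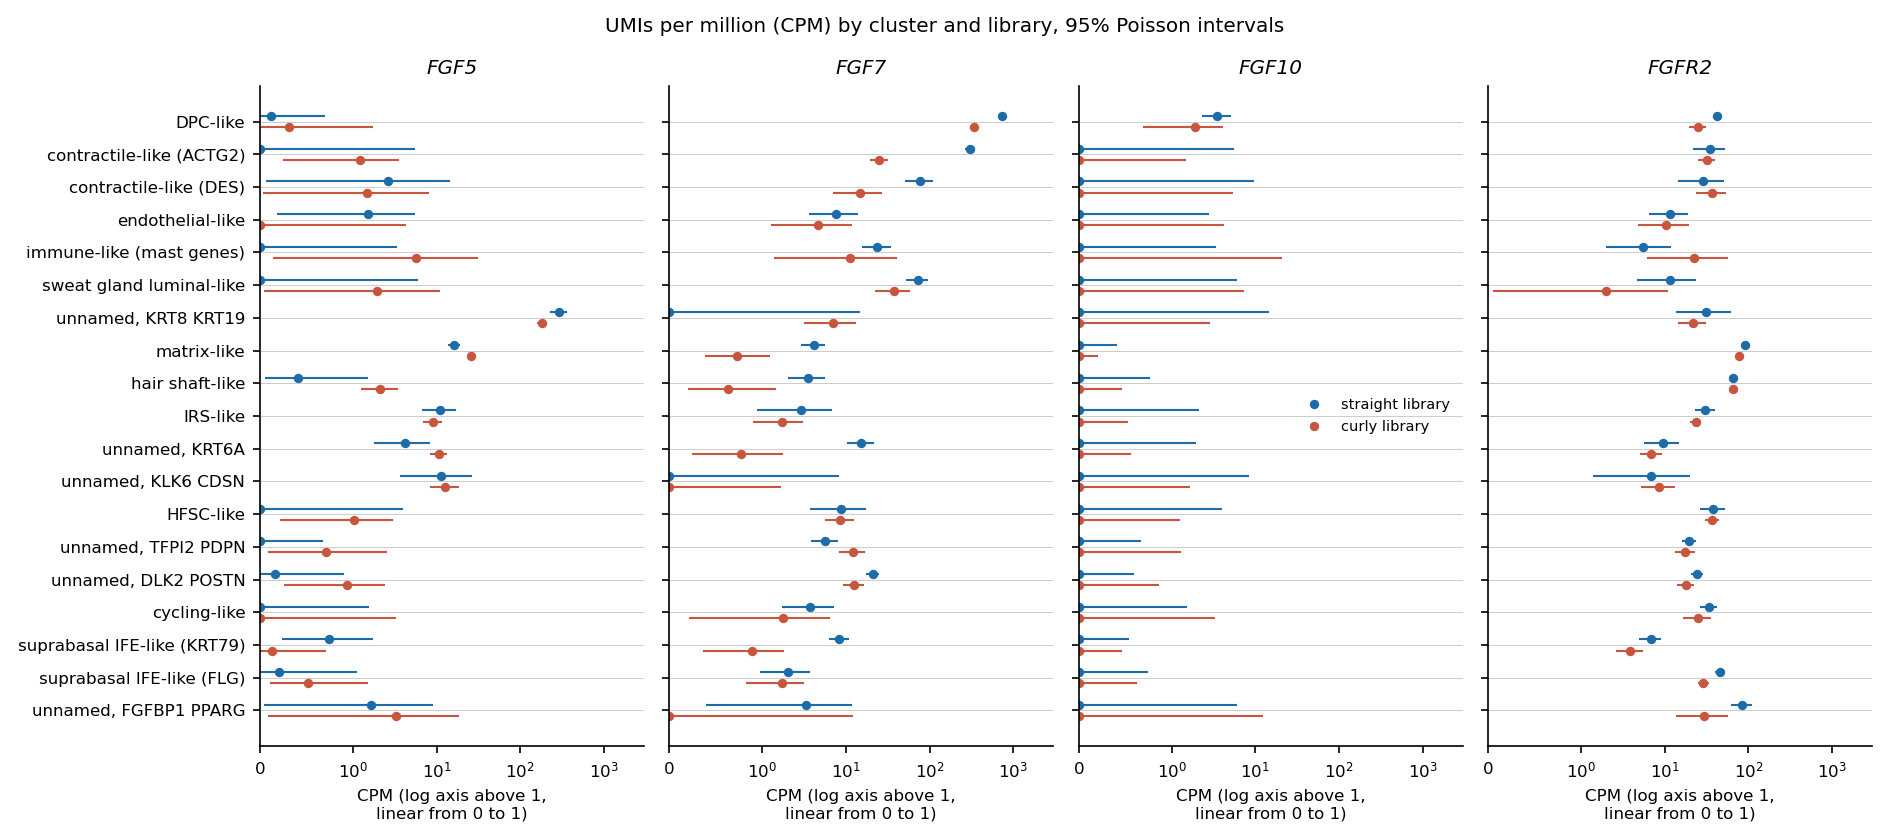
Level of FGF5, FGF7, FGF10 and FGFR2 in each cluster, in CPM, for the straight (blue) and curly (red) library, on an axis that is linear from 0 to 1 and logarithmic above, with lines for the exact 95% Poisson interval. FGF7 and FGF10 lie highest in DPC-like cells, FGF5 in the KRT8 and KRT19 cluster, and FGFR2 in matrix-like cells, except that the small FGFBP1 and PPARG cluster comes close to them in the straight library. A cluster of shallow cells, a second shallow cluster and a small immune-like cluster are not drawn.

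FGF7 was spread unevenly among DPC-like cells. In straight cells 597 of 1284 had no FGF7 UMI, 222 had at least 10, and the 129 cells with the most UMIs held 51.2% of them. Curly cells showed the same unevenness, with 456 of 713 cells at 0, 29 cells with at least 10 UMIs and 62.8% of UMIs in the highest 72 cells. The highest cell held 51 UMIs in straight and 18 in curly.

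Finer clustering parted the DPC-like cells into an FGF7-high and an FGF7-low group. The FGF7-high group was led by FGF7 itself, EBF1, EDN3 (the signalling peptide endothelin 3) and PTGDS, and it held 599 straight and 206 curly cells. FGF7 stood at 1032 CPM (1003 to 1060) in its straight cells against 772 CPM (723 to 823) in its curly ones, a log2 ratio of -0.42 (-0.52 to -0.32). The shares of cells with an FGF7 UMI overlapped in their intervals, at 88.3% (85.5 to 90.8) and 86.4% (81.0 to 90.8). The FGF7-low group was led by SERPINF1, SOX18, CRABP1 and APOD, with 640 straight and 455 curly cells. There FGF7 stood at 252 CPM (235 to 271) in straight and 66.9 CPM (55.7 to 79.8) in curly cells, a ratio of -1.91 (-2.20 to -1.64), which lay past 2-fold beside 3.07% of 4433 genes that were lower by as much in these cells.

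The make-up of the DPC-like class differed between libraries. The FGF7-high group made up 46.7% of straight DPC-like cells (43.9 to 49.4) and 28.9% of curly ones (25.6 to 32.4), while the FGF7-low group made up 49.8% and 63.8%. With equal weight on both groups, an alternative chosen after seeing the data, the FGF7 ratio of the class was -0.61 in place of -1.10. The matching of straight to curly DPC-like cells rests on the integration of the libraries. Without it the DPC-like class held 1240 straight and 47 curly cells. An unnamed cluster led by CRABP1 and APOD, with DPC as its closest class, held 5 straight and 599 curly cells. Cells with at least 2000 UMIs were also thinned to 2000 UMIs each, which left out 1037 of all 6452 straight and 1533 of all 7585 curly cells. FGF7 then stood at 1017 and 772 CPM in the FGF7-high group, in 69.3% and 69.8% of cells. In the FGF7-low group it stood at 187 and 67.7 CPM, in 15.0% and 10.0% of cells. At equal depth the level in the cells kept was thus lower in curly in both groups. The share of cells, given here without intervals, was lower in the FGF7-low group only.

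Markers of other cells were present in the FGF7-low group. Of the Schwann cell markers, the cadherin gene CDH19 stood at 2.66 and 8.10 CPM and SOX10, a neural crest factor, at 0.333 and 4.32 CPM, so both were higher in the curly cells of this group, and these are not the whole list. Neither had a UMI in the FGF7-high group. Dermal fibroblast markers summed to 1348 and 934 CPM in the FGF7-low group and to 368 and 320 CPM in the FGF7-high group, with 3 and 2 of 6 markers seen in at least 10% of cells. The part of these in the FGF7 difference was not tested. A small shallow group of dermal fibroblast-like cells, of which 45 straight and 51 curly cells lay inside the DPC-like class, held 5 and 8 FGF7 UMIs, or 62.0 CPM (20.1 to 145) and 86.2 CPM (37.2 to 170).

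**Figure D2:**
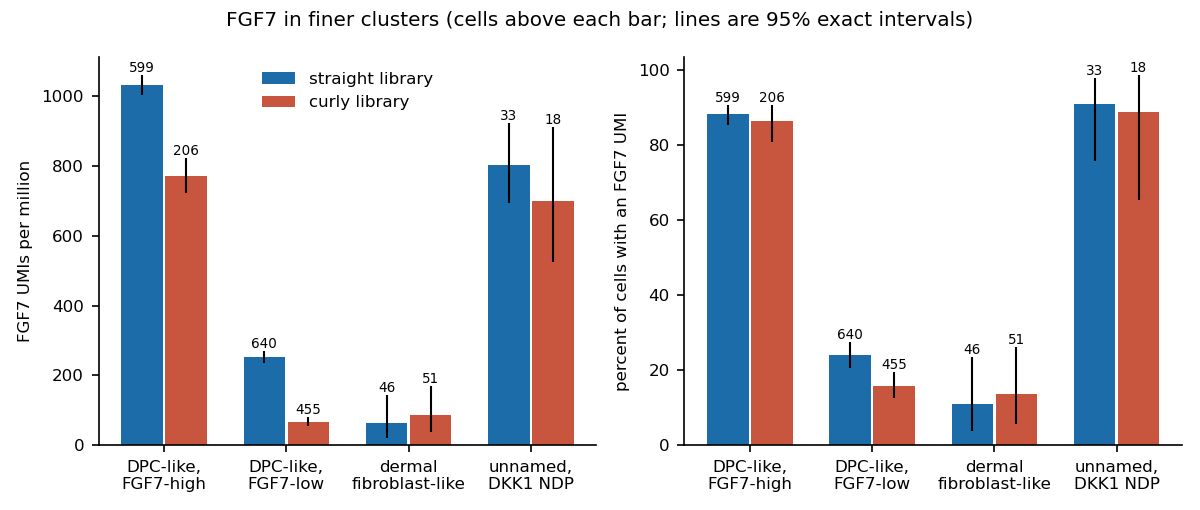
FGF7 in 4 finer clusters, as CPM (left) and as the percentage of cells with an FGF7 UMI (right), with bars for the straight (blue) and curly (red) library, exact 95% intervals as lines and the number of cells above each bar. The bars of the DKK1 and NDP cells stand almost as high as those of the FGF7-high DPC-like cells, and the ratio between the libraries is furthest from 0 on the log2 scale in the FGF7-low group, at 252 and 66.9 CPM.

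A second place with a high FGF7 level was a set of 51 cells led by DKK1, an inhibitor of Wnt signalling, with SYT8, MSLN and NDP. FGF7 stood at 803 CPM (695 to 923) in its 33 straight and 700 CPM (526 to 913) in its 18 curly cells, in 90.9% and 88.9% of them. The interval of the ratio covered 0, at -0.20 (-0.66 to 0.24). At the coarser level these cells fell into the contractile-like cluster led by ACTG2, a smooth muscle actin. That cluster as a whole stood at 303 and 25.03 CPM, a log2 ratio of -3.60 (-4.03 to -3.18), past 2-fold beside 2.34% of 3254 genes that were lower and 8.94% that were higher by as much. The DKK1 cells carried most of it, since they held 54 of its 62 curly FGF7 UMIs, and 199 straight ones, all but a few of those in the cluster. They made up 33 of its 82 straight but 18 of its 273 curly cells. Its remaining 49 straight and 255 curly cells stood at 4.807 and 3.333 CPM (-0.53, -2.85 to 2.74), from 2 and 8 UMIs. Neither the DKK1 cells nor the remaining cells thus had a ratio past 2-fold. The part of the make-up in the ratio of -3.60 was not tested.

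Keratinocyte clusters held little FGF7, and its direction varied among them. Matrix-like cells stood at 4.12 and 0.729 CPM (-2.50, -3.54 to -1.56) and hair shaft-like cells at 3.53 and 0.628 CPM (-2.49, -4.28 to -0.99). The KRT6A cluster stood at 15.2 and 0.768 CPM, and its straight value came from 29 UMIs in 6 of 192 cells. The DLK2/POSTN cluster stood at 20.97 and 12.46 CPM (-0.75, -1.24 to -0.28). In the TFPI2/PDPN cluster the FGF7 level was higher in curly, at 5.681 and 12.02 CPM (1.08, 0.34 to 1.83). The UMIs there came from 18 of 577 straight and 8 of 339 curly cells. The share of cells with a UMI was thus not higher in curly (3.12% and 2.36%). Endothelial-like cells stood at 7.66 and 4.63 CPM. The summed level of the DPC markers in matrix-like cells moved the same way, at 324 and 84.2 CPM. In matrix-like and hair shaft-like cells FGF7 was not above endothelial-like cells and is not read as expression. Sweat gland luminal-like cells stood higher, at 72.1 CPM (52.39 to 96.79) and 37.42 CPM (22.53 to 58.44), with a UMI in 19.81% and 13.95% of cells. Their ratio was -0.95 (-1.81 to -0.14). In curly they lay above the whole ACTG2 cluster (25.03 CPM), with overlapping intervals. Another contractile-like cluster, led by DES, stood at 76.02 and 14.63 CPM (-2.38, -3.58 to -1.30).

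FGF10, the other mesenchymal ligand of FGFR2, was seen in 34 UMIs only. All of them lay in DPC-like cells, 28 in straight and 6 in curly, or 3.51 CPM (2.33 to 5.07) and 1.90 CPM (0.696 to 4.13). The ratio of -0.89 (-2.45 to 0.41) could not be told from 0 at this depth. None of the 5168 straight and 6872 curly cells outside the class had an FGF10 UMI, which allows a share of cells with a UMI, not of cells expressing the gene, of up to 0.0581% and 0.0437%, or 0.06003 and 0.04028 CPM. The FGF7-high group held 20 of the straight and 4 of the curly UMIs, the FGF7-low group 8 and 2. Of the cells with an FGF10 UMI, 21 of 28 in straight and 4 of 5 in curly also had an FGF7 UMI, against 53.0% and 35.7% of DPC-like cells without FGF10, which were shallower (median 5935.5 against 9126.5 UMIs in straight and 4265 against 5539 in curly).

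FGF5 had its highest level in a small cluster led by LCN2, IGFBP2, CLDN10, KRT8 and KRT19, the last of these being keratins of simple epithelia. This KRT8/KRT19 cluster also had the nuclear receptor gene VDR and SMOC2 among its leading genes. It held 26 straight and 87 curly cells, or 0.403% and 1.15% of the libraries. FGF5 stood at 292 CPM (229 to 367) in straight against 181 CPM (159 to 206) in curly, 5.40 above all other cells on the log2 scale as the mean of both libraries. A UMI of FGF5 was seen in 50% (29.9 to 70.1) and 66.7% (55.8 to 76.4) of the cells. In endothelial-like cells FGF5 had 2 UMIs in 192 straight cells and none in 166 curly cells, which allows a share of cells with a UMI of up to 1.81%.

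The ratio in the KRT8/KRT19 cluster was -0.69 (-1.07 to -0.29), the opposite sign to the ratio over all cells. It rested on 74 straight UMIs, of which the 3 highest cells held 41.9%. Median depth was 8710.5 UMIs in the straight and 15529 in the curly cells of the cluster. After thinning to 2000 UMIs the order turned, with 9 UMIs in 23 straight cells (196 CPM, 89.5 to 371) and 36 in 84 curly cells (214 CPM, 150.1 to 297), and the intervals overlapped. The direction thus depended on whether all UMIs or the few left at equal depth were used.

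Most FGF5 UMIs came from the larger matrix-like class, with 146 of 266 in straight (54.9%) and 465 of 912 in curly (51.0%). The level there was 16.3 CPM (13.7 to 19.1) and 26.1 CPM (23.8 to 28.6), a log2 ratio of 0.68 (0.41 to 0.96), and 13.01% and 19.41% of cells had a UMI. Within the class FGF5 stood highest in cells led by STC1 (a secreted glycoprotein hormone), PTGS2 (the prostaglandin synthase COX-2), C1QTNF12 and FGF5 itself. These 121 straight and 182 curly cells stood at 34.1 and 92.9 CPM, with a UMI in 28.1% and 46.2% of cells. Their ratio of 1.45 (1.06 to 1.84) lay past 2-fold, beside 1.73% of 4093 genes that were higher by as much in these cells. Thinned to 2000 UMIs the STC1/PTGS2 cells stood at 13.2 CPM (2.71 to 38.5) from 3 UMIs and 105 CPM (74.0 to 145) from 37 UMIs.

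The direction was the same in matrix-like cells led by FABP7, with the replication genes MCM5 and TK1 among their leading genes, of which 614 of 755 lay in the matrix-like class and 134 in the hair shaft-like class. FGF5 had 4 UMIs in straight and 49 in curly (1.15 and 6.04 CPM), a ratio of 2.40 (0.95 to 4.33). Cycling-like cells of the matrix, led by UBE2C and AURKB, stood at 17.8 and 14.3 CPM, with a ratio below 0 whose interval covered 0 (-0.32, -0.77 to 0.14). Median depth of the STC1/PTGS2 cells was 17631 and 18724 UMIs, and that of the cycling-like cells 18165 and 19689.5.

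Below these, FGF5 stood at 11 and 8.99 CPM in inner root sheath (IRS)-like cells, at 11.3 and 12.7 CPM in the KLK6/CDSN cluster and at 4.19 and 10.6 CPM in the KRT6A cluster. Neighbours in this order overlapped in their intervals in both libraries. Hair shaft-like cells held 2 and 17 UMIs (0.415 and 2.13 CPM), and DPC-like cells 1 UMI in each library. Hair follicle stem cell (HFSC)-like cells held none in 226 straight cells, which allows a share of cells with a UMI of up to 1.33%, and 3 UMIs in 530 curly cells.

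**Figure D3:**
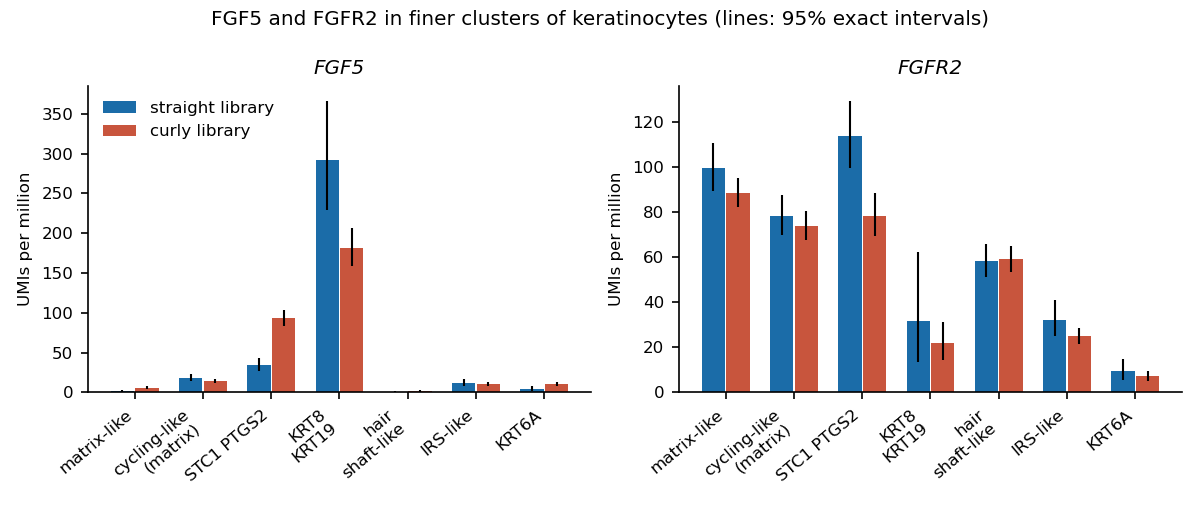
Level of FGF5 (left) and FGFR2 (right) in finer clusters of keratinocytes, in CPM, with bars for the straight (blue) and curly (red) library and lines for exact 95% intervals. FGF5 peaks in the KRT8/KRT19 cells and then the STC1/PTGS2 cells, while FGFR2 is lower in the KRT8/KRT19 cells than in the matrix and hair shaft-like cells.

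FGFR2 was led by matrix-like cells. Its level was 90.5 CPM (84.4 to 96.9) in straight and 77.8 CPM (73.8 to 82.0) in curly cells, with a UMI in 64.6% and 66.8% of cells. This exceeded the level of all other cells by 1.58 on the log2 scale as the mean of both libraries, a smaller step than for FGF5 and FGF7. The log2 ratio was -0.22 (-0.34 to -0.09). Hair shaft-like cells came second among clusters with at least 25 cells per library that were not shallow, at 66.2 CPM in both (59.2 to 73.9 and 60.6 to 72.1), and the interval of their ratio ran from -0.20 to 0.20. Matrix-like cells held 34.7% of straight and 47.9% of curly FGFR2 UMIs. Counts at the 3′ end of a gene do not separate the epithelial from the mesenchymal splice form of FGFR2.

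FGFR2 was also read in finer matrix groups. The STC1/PTGS2 cells stood at 114 and 78.3 CPM (-0.54, -0.80 to -0.27), the FABP7 cells at 99.4 and 88.4 CPM (-0.17, -0.36 to 0.02) and the cycling-like cells at 78.1 and 73.9 CPM (-0.08, -0.29 to 0.13). In the STC1/PTGS2 cells the receptor was lower and FGF5 higher in curly than in straight. Of matrix-like cells with an FGF5 UMI, 57 of 76 (75.0%, straight) and 137 of 196 (69.9%, curly) also had one of FGFR2, against 63.0% and 66.1% of those without one, and those with FGF5 were deeper (median 20507.5 against 16044.5 UMIs in straight and 21030.5 against 17748.5 in curly).

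Outside the matrix and hair shaft, the small FGFBP1/PPARG cluster had 84.1 and 29.8 CPM of FGFR2, with only 51 straight and 19 curly cells. Suprabasal cells of the interfollicular epidermis (IFE) led by FLG stood at 46.1 and 29.1 CPM (-0.66, -0.96 to -0.37), and those led by KRT79 at 6.82 and 3.84 CPM. HFSC-like cells stood at 38.1 and 36.7 CPM. The KRT6A cluster, at 9.43 and 6.91 CPM, lay at the level of endothelial-like cells (11.5 and 10.4 CPM). DPC-like cells had 42.5 and 24.98 CPM of FGFR2, a log2 ratio of -0.77 (-1.14 to -0.41), in 20.1% and 9.68% of cells. Among those with an FGF7 UMI, 29.1% (straight) and 15.6% (curly) also had one of FGFR2, against 9.72% and 6.36% of those without. Cells with FGF7 were deeper, with a median of 7774 against 3897 UMIs in straight and 5477 against 3874.5 in curly, and the part of depth in the shared detection was not tested. By finer group it stood at 54.4 and 35.3 CPM in the FGF7-high and 24.0 and 19.4 CPM in the FGF7-low cells.

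FGFR1, the receptor usually found in mesenchyme, was led by DPC-like cells with 222 and 149 CPM, a log2 ratio of -0.58 (-0.73 to -0.43), and was seen in 62.2% and 41.5% of them. In the FGF7-high group it stood at 258 and 205 CPM (-0.33, -0.53 to -0.13), and in the FGF7-low group at 163 and 116 CPM (-0.50, -0.74 to -0.27). Among clusters that were not shallow, the ACTG2 cluster followed with 90.4 and 115 CPM. A shallow cluster of 18 straight and 64 curly cells stood at 172 and 69.4 CPM, and the shallow HBB cluster at 86.3 and 46.8 CPM. Among DPC-like cells with an FGF7 UMI, 77.0% (straight) and 59.9% (curly) had one of FGFR1, against 45.1% and 31.1% of those without, with the same difference in depth. In HFSC-like cells it stood at 56.6 and 16.8 CPM, a ratio of -1.75 (-2.34 to -1.16), beside 3.57% of 3641 genes that were lower by at least 2-fold in these cells. Endothelial-like cells had 36.0 and 53.2 CPM. Median depth of HFSC-like cells was 2866 and 5549 UMIs, and without integration of the libraries the HFSC-like class held 3 straight and 755 curly cells, so this ratio rests on the integration.

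Among clusters that were not shallow, FGFR3, an epithelial receptor, lay highest in HFSC-like cells (58.7 and 54.2 CPM) and FLG cells (58.0 and 53.1 CPM), whose intervals overlapped. Next came the KRT6A cluster (56.6 and 40.9 CPM) in straight and hair shaft-like cells in curly. FGFR3 was higher in curly in matrix-like cells, at 12.7 and 22.3 CPM (0.81, 0.51 to 1.12), and in hair shaft-like cells, at 28.2 and 45.6 CPM (0.69, 0.40 to 0.99). In the STC1/PTGS2 cells the interval covered 0, at 11.9 and 12.1 CPM (0.03, -0.73 to 0.83).

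**Figure D4:**
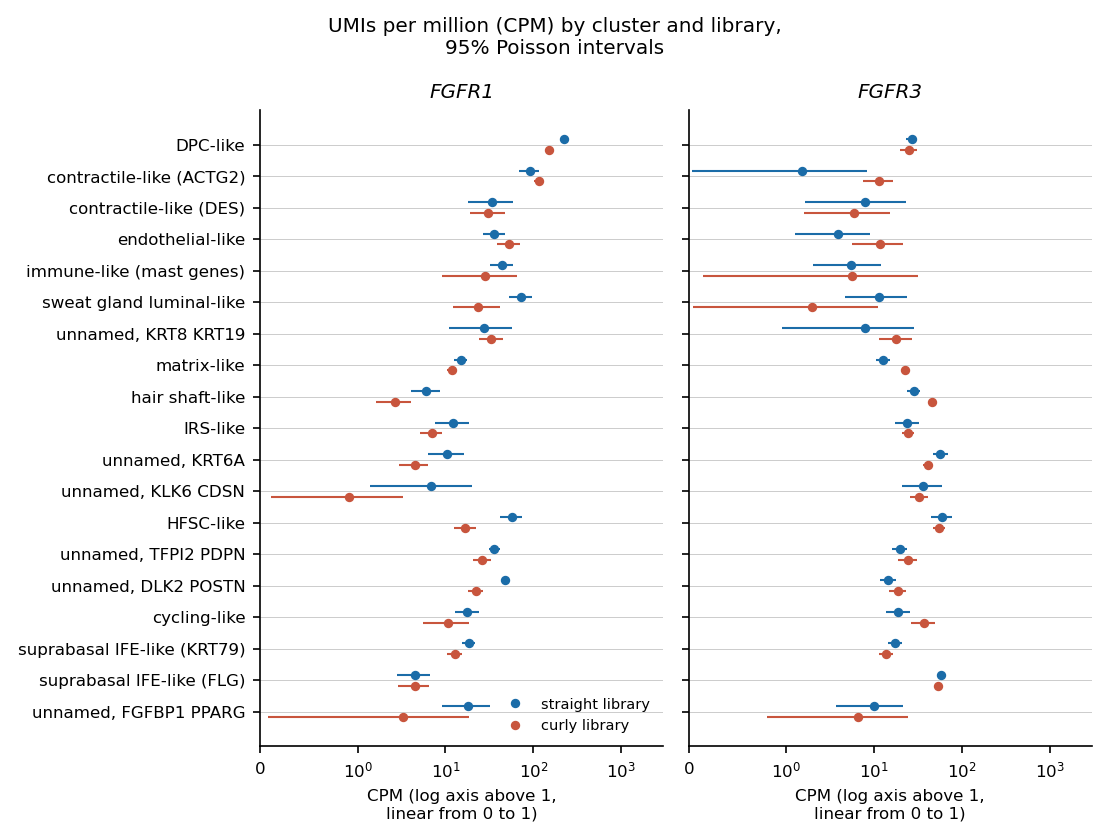
Level of FGFR1 and FGFR3 in each cluster, in CPM, for the straight (blue) and curly (red) library, on an axis that is linear from 0 to 1 and logarithmic above, with lines for the exact 95% Poisson interval. Of the clusters drawn, which leave out shallow ones and a small immune-like one, FGFR1 is highest in DPC-like and ACTG2 cells. FGFR3 is highest in HFSC-like and FLG cells, followed by KRT6A cells in the straight and hair shaft-like cells in the curly library.

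Other ligands were few. Of the 22 ligand genes listed, 14 were in the table and 9 had at least 100 UMIs. Apart from FGF5 and FGF7, none of these passed 2-fold over all cells. FGF1 was led by the ACTG2 cluster (18.1 and 44.4 CPM), FGF2 by IRS-like cells (24.3 and 22.0 CPM), FGF13 by DPC-like cells (11.7 and 9.17 CPM) and FGF21 by hair shaft-like cells (11.8 and 14.2 CPM). As the mean of both libraries, FGF18 was highest in the KRT8/KRT19 cluster, with 7.89 and 17.8 CPM, followed by HFSC-like cells with 13.1 and 7.21 CPM. In the straight library HFSC-like cells stood higher, and the KRT8/KRT19 value lay under its floor of 11.8 CPM. Thus FGF7, FGF10 and FGF13 shared their leading cluster in both libraries, while FGF5 and FGF18 shared theirs only as the mean of the libraries. Among the other receptors, FGFR4 had 45 UMIs and FGFRL1, a receptor without a kinase domain, 222.

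Among 11 of 13 cofactors in the table, the carrier protein gene FGFBP1 was most abundant in the FGFBP1/PPARG cluster (2607 and 4179 CPM), and the heparan sulfate proteoglycan GPC3 in DPC-like cells (185 and 111 CPM). The klotho coreceptors KL and KLB had 3 and 11 UMIs. Of 6 cofactors with enough UMIs in DPC-like cells none passed 2-fold, and their median log2 ratio was -0.26 beside -0.07 for all genes. Of 5 heparan sulfate enzymes tested there, SULF2, which removes sulfate groups from heparan sulfate, was higher in curly (12.7 and 51.2 CPM, 2.02 on the log2 scale). Beside it, 2.77% of all 7000 genes tested in DPC-like cells were higher by 2-fold or more. The splicing factor gene ESRP1, which promotes the epithelial form of FGFR2, stood at 4.51 and 7.27 CPM in DPC-like, 29.1 and 28.9 CPM in matrix-like and 36.5 and 42.6 CPM in hair shaft-like cells.

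Target and feedback genes of FGF signalling lay below 0 in most cases in matrix-like and hair shaft-like cells. In matrix-like cells 11 of the 17 listed genes had at least 100 UMIs, 10 had a ratio below 0, as had 60.5% of all 8916 genes tested, and 2 were lower by 2-fold or more, beside 1.45% of genes. These were the feedback inhibitors SPRY1 (33.8 and 16.5 CPM, -1.03, -1.27 to -0.79) and SPRY2 (18.9 and 6.34 CPM, -1.58, -1.94 to -1.23). DUSP6 stood at 250 and 155 CPM (-0.69, -0.77 to -0.61) and ETV4 at 31.0 and 17.3 CPM (-0.84, -1.08 to -0.60), while FLRT3, a membrane protein that binds the receptor, was at 0.09 (-0.17 to 0.36). The median of the list was -0.69, beside -0.08 for all genes. The dissociation response, genes switched on while tissue is digested, had a median of -0.27 there with none of 13 past 2-fold.

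Hair shaft-like cells gave 6 target genes, all with a ratio below 0, as had 46.3% of all genes, and DUSP6 (76.8 and 30.5 CPM, -1.33, -1.57 to -1.09) and PHLDA1 (-1.11) were lower by 2-fold or more, beside 2.25% of 6532 genes. The median was -0.87 against 0.03 for all genes, and the dissociation response stood at -0.19, with IER3 lower. In DPC-like cells 8 target genes had a median of -0.24 against -0.07, with 7 below 0, as were 56.3% of all genes. The phosphatase DUSP5 (22.3 and 6.32 CPM, -1.82) and PHLDA1 (356 and 68.9 CPM, -2.37) were lower past 2-fold, beside 5.21% of all 7000 genes. Dissociation genes had a median of -0.20 in DPC-like cells, with NR4A1 and BTG2 of 13 tested lower by 2-fold or more, beside the same 5.21% of all genes.

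In HFSC-like cells 5 target genes had a median of -0.32 against -0.21, with PHLDA1 lower, and 7 of 12 dissociation genes, FOS and JUN among them, were lower past 2-fold with a median of -1.15, beside the 3.57% of all genes given above and in a class that rests on the integration. The ACTG2 cluster was the exception in direction. DKK1 cells made up 33 of its 82 straight and 18 of its 273 curly cells, and the part of this make-up in its ratios was not tested. Its 6 target genes had a median of 0.61 against 0.07. ETV4 (69.3 and 204 CPM, 1.56) and IL17RD (10.5 and 47.6 CPM, 2.18) were higher past 2-fold. The dissociation genes had a median of 0.83, with 3 of 13 higher past 2-fold. Of all 3254 genes tested in this cluster, 8.94% were higher by as much. Over all cells, where the cell mix enters, SPRY4, SPRED2, SPRED3 and ETV1 were lower by 2-fold or more among 16 target genes. Of all 13196 genes tested there, 6.91% were lower by as much. The part of the dissociation response in these differences was not tested.

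**Figure D5:**
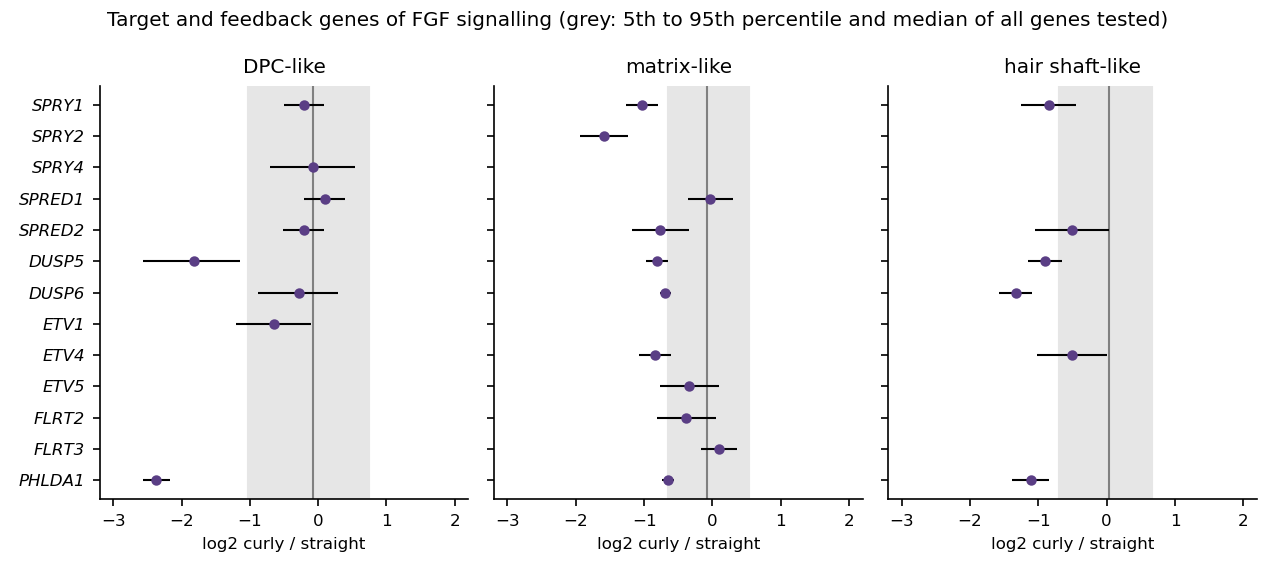
Log2 ratio of curly over straight for target and feedback genes of FGF signalling with at least 100 UMIs in DPC-like, matrix-like and hair shaft-like cells, with exact 95% intervals as lines. The grey band spans the 5th to 95th percentile of all genes tested in that class and the grey line their median; 10 of 11 genes in matrix-like and 6 of 6 in hair shaft-like cells lie below 0, as do 60.5% and 46.3% of all genes tested.

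The genes whose levels over 40 cluster and library profiles were most like those of each member are given as a description, since the profiles share cells, libraries and depth. For FGF7 these were CLEC11A (Pearson's r of 0.85), PRELP (0.84), OLFML3, EFCAB2 and DPEP1. For FGF5 they were LCN2 and SLC7A8 (both 0.85), NMRK2, SLC39A10 and ARHGAP8, of which LCN2 and SLC7A8 are also leading genes of the KRT8/KRT19 cluster. For FGFR2 they were ELP6 and MRPS5 (both 0.79), ANKRD54, MRPS9 and MTG1, and for FGF10, which rests on 34 UMIs, RSPO2 (0.97), TMEM132C, LOC105608584 and SFRP2 were among the closest. For FGFR1 and FGFR3 the closest were RNF216 (0.83) and PITPNM3 (0.82). With 1 CPM added in place of 5, 4 of the 5 genes were the same for FGF5, 2 for FGF7, 3 for FGF10 and 3 for FGFR2.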

How the data were processed

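Skin of lambs with straight and with waved (curly) wool was measured by single-cell RNA-seq, 1 library each. Per the labels reads were processed with Cell Ranger 3.0.2, and the study's methods name another version. The authors aligned them to the Oar_rambouillet_v1.0 assembly, counted UMIs, and deposited expression as a natural log, log(1 + UMIs scaled within a cell), for 18161 genes and 14037 cells. Planning had assumed UMI counts, so each cell's scale was read from its smallest value and whole UMIs were recovered. Of 28552149 values above 0, 100% were whole within 0.01 (largest deviation 0.00304).

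Cells were integrated by anchors in Seurat 5.3.0 (R 4.3.3) on 2000 variable genes without the FGF lists and 30 dimensions, and clustered at resolution 0.3 (22 clusters), where raising it by 0.1 at a time first reached 19 or more, and at 0.8 (31 finer clusters). A class name needed a marker score of at least 1.5 and 3 markers in at least 10% of cells. Further limits of this rule (own markers at least 3 times those of another class among the 10 leading genes, dividing cells named last, no name for shallow cells without a leading marker) were set after seeing the data. UMIs were summed per cluster and library with scipy 1.17.1. Clusters needed 25 cells per library to lead a gene, and a ratio 100 UMIs of the gene in both libraries together to count as tested. Likeness was Pearson's r of log2 values with 5 CPM added, over genes with at least 200 UMIs. Floors are 3 counts.

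The members and gene lists were chosen with earlier results of these data known. Genes named are the members, the fixed lists, the genes leading a cluster and the 5 genes most like each member. A few results on single genes are not reported here. Doublets stayed in: the Scrublet threshold called 60 straight and 2 curly cells and did not work in curly, so an alternative removed the highest 6% of scores per library. The scripts were tested on simulated data. Gene names came from a RefSeq table of ARS-UI_Ramb_v3.0, another assembly, from which no position or sequence was taken.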

Additional observations from a re-analysis of the deposited data

How the results depend on the processing

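With 1 library per wool type no replicate could be left out, and the depth limits FGF10 (34 UMIs) and the small KRT8/KRT19 cluster most. No paired analysis was possible because each group has 1 library. The ratios given here are log2, first of the leading cluster over all other cells, then of curly over straight. At resolution 0.8 FGFR2 was led by the STC1/PTGS2 cells, with 1.37 and -0.54. Without integration FGF5 was led by the KRT6A cluster (3.02) and FGF7 gave 5.38 and -0.58; the DPC-like class there held 1240 straight and 47 curly cells, and FGF10 gave no value. With the FGF lists among the variable genes FGFR2 was led by hair shaft-like cells (1.28). In cells with the higher minimum of genes planned as an alternative (3964 straight and 4321 curly cells) the KRT8/KRT19 cluster fell under 25 straight cells, so FGF5 was led by matrix-like cells (2.12), with 0.75, the opposite sign, and FGF7 gave 6.89 and -0.87. With the highest doublet scores removed FGF7 gave 6.49. Thinned to 2000 UMIs, FGF5 was led by the KLK6/CDSN cluster (2.34) for the same reason, FGF7 gave 5.27 and -0.99, and FGF10 3.4. As the mean of per-cell CPM, FGF7 gave 5.26, and FGFR2, led by hair shaft-like cells, 1.26 and 0.07, the opposite sign. With equal weight on both DPC-like groups, added after seeing the data, FGF7 gave -0.61. The share of genes past 2-fold in DPC-like cells was 7.99%, 13% from 20 UMIs and 19.1% over all genes with a UMI in both libraries. Of the main values compared, 49 stayed within their counting interval (the share of genes, within 1.5 times), 19 moved further and 2 changed sign. Some of the 49 came from another leading cluster, such as FGF5 without integration (-0.31) and when thinned (-0.84, -3.45 to 2.56). Wide intervals also let values count as unchanged, such as FGF10 when thinned (-0.04 in place of -0.89). The count of 49 is therefore not a measure of stability. The FGF7 ratio of curly over straight in DPC-like cells was below 0 under every alternative run. Without integration this ratio set 1240 straight cells against 47 curly ones only. It left out the unnamed cluster led by CRABP1 and APOD, which held 5 straight and 599 curly cells.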
